A study of Mus musculus with 6 samples.

Results

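The genes described here encode the machinery that copies DNA: the origin recognition complex, the GINS complex, primase and the replicative polymerases, the clamp loader, the single-strand binding protein, the enzymes that finish Okazaki fragments, and the proteins that protect the fork and rebuild chromatin behind it. They were chosen by name as a set of 40 symbols, with the measured comparison of methamphetamine with saline already known, so every value below is a description of that comparison and not an independent test of it. Of the 40 symbols, 39 were found among the 23930 genes of the authors' deposited table, and Pold4, a small subunit of polymerase delta, was not analysed here.

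Replication starts where the origin recognition complex loads the MCM helicase. GINS and Cdc45 turn that helicase on, primase and polymerase alpha lay down primers, and polymerases epsilon and delta extend them on the leading and lagging strands. Many of these genes are transcribed under control of E2F factors as cells enter S phase, whereas RPA, the clamp loader, topoisomerase I and several small polymerase subunits also serve repair, transcription or chromatin in cells that do not divide. Microglia, the resident macrophages of the brain, divide rarely in the healthy adult and can proliferate after injury.

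The cells were microglia sorted from perfused brains of adult C57BL/6 mice by CD11b, low CD45 and absence of CD206. The Saline group was 3 wild-type mice given 4 saline injections 2 h apart, and the Meth group was 3 wild-type mice given 4 injections of methamphetamine at 5 mg/kg on the same schedule. Methamphetamine is a psychostimulant that releases monoamines from nerve terminals. The time between the last injection and collection is not given in the sources used here. RNA was read with an amplicon panel, in which a primer pair amplifies a short stretch of each transcript, on an Ion Torrent sequencer.

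The authors' deposited table gives 1 average per group on a log2 scale, read here as log2(RPM + 1), where RPM scales the reads of a gene to a fixed library total. Beside these averages each gene has a signed linear fold, an unadjusted p and a p corrected for the false discovery rate, called the adjusted p below. It holds no value per mouse, so no spread between mice, no depth and no interval can be given, and whether 1 mouse carries a difference was not tested. Saline averages lay below 0 for 1425 genes, which a plain mean of log2(RPM + 1) values cannot give, so the averages are not plain means of the libraries. None of the replication genes was among these, whereas 484 of the 536 genes with an adjusted p under 0.05 were. Because primer pairs differ in efficiency, levels are compared between groups and not between genes. In a sorted population, more cells in S phase and more transcript per cell cannot be told apart.

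As a set, the replication genes were shifted towards higher averages in Meth. The authors' deposited table had 31 of the 39 higher in Meth, 7 lower and 1 equal, with a median difference of 0.62 on the log2 scale, and the number higher was 30 after centring on the median gene and 33 with the trend in transcript GC content removed. Over the 10375 genes with an average of at least 1 in either group, 5256 were higher and 5058 lower and the median difference was 0.02, and of the 34 replication genes at that level 28 were higher and 6 lower, with a median of 0.68. A difference of 1.5-fold or more in the direction of Meth was listed for 21 of these 34, beside 19.7% of all genes at that level. Of these 21, Pole, Pole3, Chaf1a, Chaf1b and Timeless reached an average of 1 in Meth only, so the level filter is in part set by the difference. A mean of both averages of at least 1, chosen after seeing the data, kept the same 34 genes and so again 21, beside 19.5% of 10039 genes. That mean includes the Meth average, so it cannot show what the result would be without this dependence. Among genes with a Saline average of at least 3, 8 of 17 were higher by 1.5-fold or more and 1 was lower. Of all 7931 genes at that Saline level, 1430 were higher and 1734 lower by that fold. A difference of that size in the direction of Saline was listed for 2 of the 34, Pole4 and Pola1.

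Single genes seldom passed the authors' correction. At an adjusted p under 0.05, which 2.24% of all genes in the authors' deposited table reached, 1 of the 39 was called, the histone chaperone subunit Chaf1a. Of the 536 genes called, 499 lay under 1 in both groups. Among the 10375 genes with an average of at least 1 in either group, as Chaf1a has, 37 were called. At an unadjusted p under 0.05, 10 of the 39 were listed, all higher in Meth: Gins2, Prim1, Pold1, Pole, Rpa2, Uhrf1, Chaf1a, Chaf1b, Timeless and Wdhd1. Gins2 stayed under 1 in both groups. The remaining 9, of the 34 with an average of at least 1, stand beside 6.46% of all genes at that level that were higher at that p, and the 0 that were lower beside 8.19%. Of these 9, Pole, Chaf1a, Chaf1b and Timeless reached 1 in Meth only, so they passed the filter through the group where they were high. With a Saline average of at least 3 as the filter, 2 of 17 were higher at that p, beside 6.22% of all genes. Since the set was assembled with these values in view, the difference between those shares has no test. Nearest to the threshold of 0.05 were Chaf1b (unadjusted p = 0.0429) and Wdhd1 (0.0434) on one side and Pole3 (0.0675) on the other in the authors' deposited table.

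**Figure D1:**
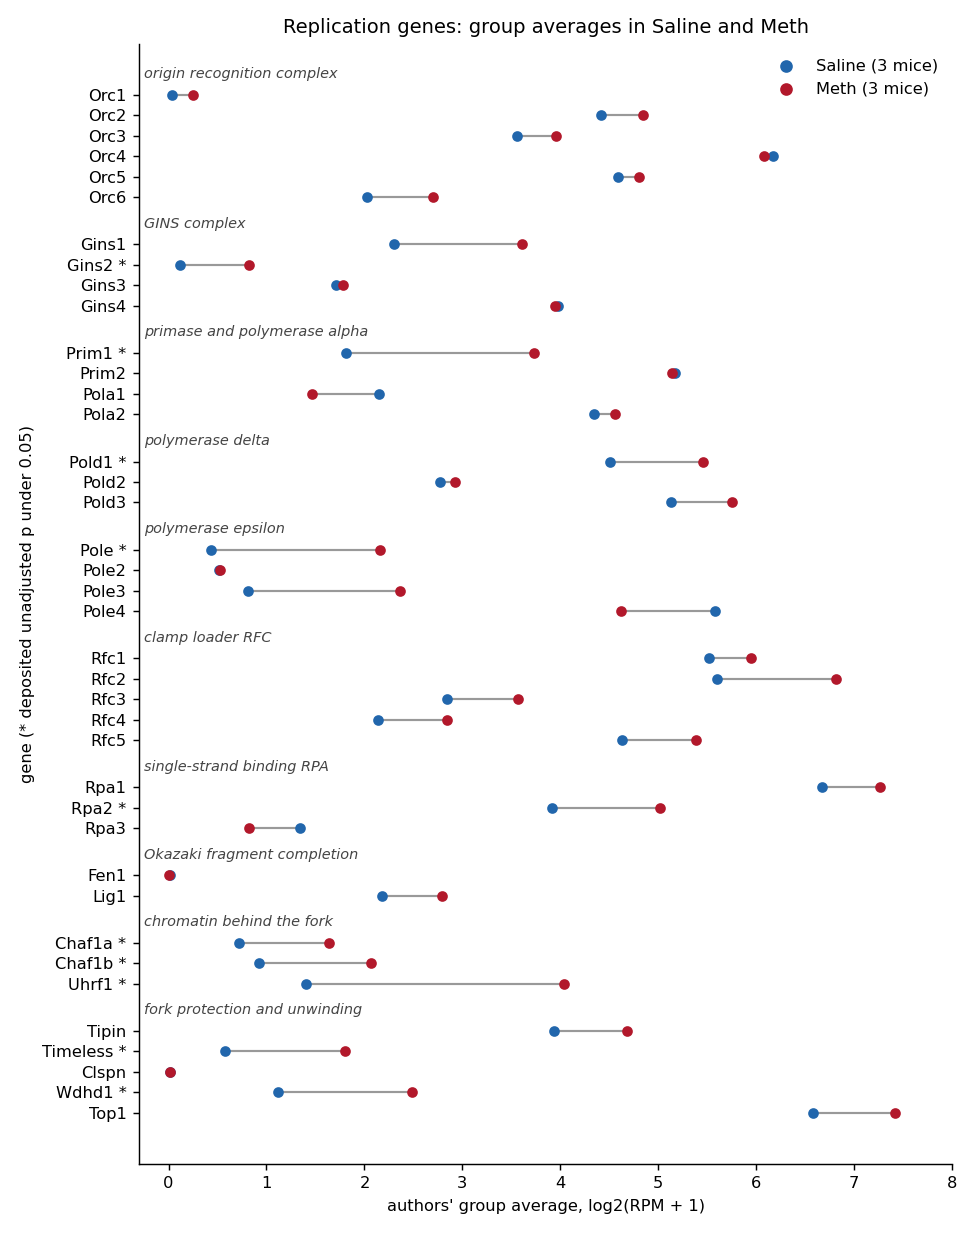
Group averages of the 39 replication genes from the authors' deposited table, on the log2(RPM + 1) axis, ordered by role, with Saline in blue and Meth in red (1 average per group, with no error available). In 31 genes the Meth point lies to the right, by the most for Uhrf1 (4.04 against 1.40), and Pole4, Pola1 and Rpa3 show the widest gaps in the other direction.

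The 3 genes of the set whose proteins restore chromatin behind the fork were all higher in Meth and under an unadjusted p of 0.05. Chaf1a, the large subunit of the chromatin assembly factor that deposits new histones on freshly copied DNA, rose from a log2 average of 0.72 in Saline to 1.64 in Meth in the authors' deposited table (1.89-fold, unadjusted p = 0.0009, adjusted p = 0.0430). That call depends on the genes near 0, since adjusting the same p-values over the 10375 genes with an average of at least 1 gave Chaf1a an adjusted p of 0.2594, computed here from the authors' deposited table. Chaf1b, its partner subunit, stood at 0.92 in Saline and 2.07 in Meth in the authors' deposited table (2.22-fold, unadjusted p = 0.0429, adjusted p = 0.4644). Both subunits of this chaperone lay under 1 in Saline and above it in Meth. Uhrf1, which binds half-methylated CpG sites and recruits the maintenance methyltransferase Dnmt1, had the widest gap of all 39 genes. The authors' deposited table listed Uhrf1 at 1.40 in Saline and 4.04 in Meth, a 6.26-fold difference (unadjusted p = 0.0038) that missed the correction (adjusted p = 0.1325). Among the 10375 genes with an average of at least 1, Uhrf1 ranked 5 by size of the difference in the direction of Meth, and Chaf1a ranked 865 by that measure but 31 by p. Dnmt1, named here after its values were seen, stood at 4.91 in Saline and 5.76 in Meth in the authors' deposited table (1.81-fold, unadjusted p = 0.1649).

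The promoters of Chaf1a, Uhrf1 and Rpa2 are shown because these genes had the 3 smallest p-values of the set, and they include its single call and its widest gap. Each sequence is the 250 bases before a RefSeq transcription start (GRCm38.p6, plus strand, chr17:56040166-56040415 for Chaf1a, chr17:56304063-56304312 for the start of Uhrf1 that lies further downstream, and chr4:132768110-132768359 for Rpa2). Capitals mark CCAAT boxes on either strand and, in Uhrf1, a match to the E2F letters searched.
Chaf1a: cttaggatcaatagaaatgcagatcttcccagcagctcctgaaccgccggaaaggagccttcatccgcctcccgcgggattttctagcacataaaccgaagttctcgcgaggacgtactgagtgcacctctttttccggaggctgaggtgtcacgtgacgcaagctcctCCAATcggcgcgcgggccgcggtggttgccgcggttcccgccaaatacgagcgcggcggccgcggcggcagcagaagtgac
Uhrf1: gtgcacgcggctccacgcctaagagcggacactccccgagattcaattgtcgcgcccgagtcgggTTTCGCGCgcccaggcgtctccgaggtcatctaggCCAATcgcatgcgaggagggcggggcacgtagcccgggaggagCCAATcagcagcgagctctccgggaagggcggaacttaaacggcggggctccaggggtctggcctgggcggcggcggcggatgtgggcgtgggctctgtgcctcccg
Rpa2: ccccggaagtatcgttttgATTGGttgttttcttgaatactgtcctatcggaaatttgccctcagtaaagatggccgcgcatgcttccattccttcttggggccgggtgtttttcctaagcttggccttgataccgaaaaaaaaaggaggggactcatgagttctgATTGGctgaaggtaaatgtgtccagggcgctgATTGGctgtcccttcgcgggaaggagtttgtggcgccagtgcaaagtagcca

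Chaf1a has a CCAAT box ending 77 bases before its start. Uhrf1 has the E2F letters TTTCGCGC followed by a pair of CCAAT boxes, and its other RefSeq start has a CCAAT box but no E2F match. Rpa2 has 3 CCAAT boxes, all on the minus strand. Among the 32 of the 39 replication genes with a RefSeq promoter, E2F letters (TTTCCCGC, TTTGGCGC, TTTGCCGC or TTTCGCGC, either strand) were found in 7 (21.9%): Orc1, Orc3, Gins3, Pola1, Pole4, Rfc3 and Uhrf1. The same letters occurred in 4.04% of the 7996 genes with a promoter and an average of at least 1, and in 2.16% of all 27025 genes with a promoter. Of the 8 genes with an unadjusted p under 0.05 and a promoter, Uhrf1 was the 1 with these letters, while Pola1 and Pole4, which also hold them, were lower in Meth. The CCAAT box was present in 16 of the 32 (50.0%, beside 39.9% of the 7996), and the CHR element TTTGAA, found at genes of late cell cycle, in 3 (9.38%, beside 12.3%). Other forms of an E2F site were not searched, so a window without these letters may still hold one. The Chaf1a window holds ccgccaaa, which on the other strand differs from TTTGGCGC in the last base and was not counted. A match of letters describes the window and is not evidence of binding.

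Proteins that travel with and protect the fork were higher in Meth where they gave a signal. Timeless, which with Tipin keeps the polymerases coupled to the helicase, stood at 0.58 in Saline and 1.80 in Meth in the authors' deposited table (2.33-fold, unadjusted p = 0.0164). In the authors' deposited table, Tipin itself was listed at 3.93 in Saline and 4.68 in Meth (1.68-fold, unadjusted p = 0.1281). Wdhd1, the adaptor that ties polymerase alpha to the helicase, was at 1.12 and 2.49 in the authors' deposited table (2.59-fold, unadjusted p = 0.0434). Top1, the topoisomerase that relieves torsion ahead of forks and of RNA polymerase, stood at 6.58 in Saline and 7.42 in Meth in the authors' deposited table (1.79-fold, unadjusted p = 0.0893). Clspn, the checkpoint adaptor Claspin, was listed at 0.02 in both groups of the authors' deposited table, so it gives no information on a difference.

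The replicative polymerases differed subunit by subunit. By the authors' deposited p-values, the catalytic subunits of polymerases delta and epsilon were both higher in Meth at under 0.05, whereas that of polymerase alpha was lower and above it. Pold1, the proofreading catalytic subunit of polymerase delta, stood at 4.51 in Saline and 5.46 in Meth in the authors' deposited table (1.93-fold, unadjusted p = 0.0112, adjusted p = 0.2696). Its accessory subunits Pold2 (2.77 and 2.92) and Pold3 (5.13 and 5.75) had unadjusted p-values of 0.5669 and 0.0903 in the authors' deposited table, and the difference of Pold2 changed sign (-0.11) with the GC trend removed. Pole, the catalytic subunit of polymerase epsilon, was listed at 0.43 in Saline and 2.16 in Meth in the authors' deposited table (3.31-fold, unadjusted p = 0.0205, adjusted p = 0.3625). Among the other subunits of polymerase epsilon in the authors' deposited table, the accessory subunit Pole2 stood at 0.52 and 0.53. The histone-fold partners Pole3 and Pole4, which form a dimer, were apart in opposite directions. Pole3 stood at 0.81 in Saline and 2.36 in Meth (2.92-fold, unadjusted p = 0.0675) and Pole4 at 5.58 in Saline and 4.62 in Meth (1.95-fold, unadjusted p = 0.1737) in the authors' deposited table. The polymerase epsilon subunits thus ranged from -0.96 to 1.73 in log2 difference, the widest range of any complex in the set.

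In the primase and polymerase alpha complex, which starts every new strand with a short RNA and DNA primer, 1 of the 4 subunits stood apart. Prim1, the catalytic subunit of primase, was listed at 1.81 in Saline and 3.73 in Meth in the authors' deposited table (3.78-fold, unadjusted p = 0.0133, adjusted p = 0.2995), and it ranked 31 by size of the difference among genes at an average of at least 1. Its regulatory partner Prim2 stood at 5.17 in Saline and 5.14 in Meth in the authors' deposited table (unadjusted p = 0.5181), a gap of -0.03 that became 0.13 with the GC trend removed. Pola1, the catalytic subunit of polymerase alpha, was lower in Meth at 1.46 against 2.15 in Saline in the authors' deposited table (1.61-fold, unadjusted p = 0.1975). Pola2, its accessory subunit, was at 4.34 in Saline and 4.56 in Meth in the authors' deposited table (unadjusted p = 0.2565). The complex therefore spanned -0.69 to 1.92 in log2 difference, with a median of 0.10.

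**Figure D2:**
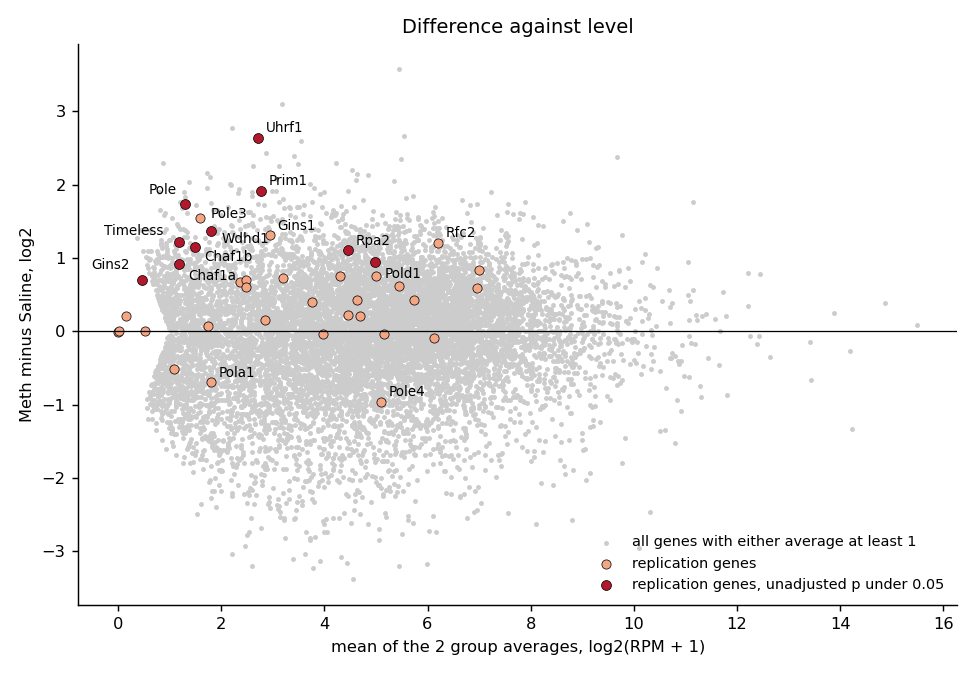
Difference of the group averages (Meth minus Saline, log2) against the mean of both averages, for the 10375 genes with either average at least 1 (grey) and the 39 replication genes (coloured, dark red where the deposited unadjusted p is under 0.05). Of the 10 dark red genes, 8 have a mean under 3, and Pold1 and Rpa2 are the other 2.

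All 5 genes of replication factor C, which opens the sliding clamp and places it on DNA, were higher in Meth in the authors' deposited table, and none had an unadjusted p under 0.05. Rfc2, a small subunit shared with the alternative loaders, showed the widest gap of these, at 5.60 in Saline and 6.81 in Meth in the authors' deposited table (2.31-fold, unadjusted p = 0.0831). The small subunits Rfc3 (2.84 and 3.57), Rfc4 (2.14 and 2.84) and Rfc5 (4.63 and 5.38) differed by 0.70 to 0.75 log2 units in the authors' deposited table. Rfc1, the large subunit particular to replication, stood at 5.52 in Saline and 5.95 in Meth in the authors' deposited table (unadjusted p = 0.2105). The clamp itself, Pcna, was not analysed here.

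RPA coats single-stranded DNA at forks and at sites of repair. Rpa1, its large subunit, stood at 6.67 in Saline and 7.26 in Meth in the authors' deposited table (1.51-fold, unadjusted p = 0.0858). Rpa2, the subunit phosphorylated under replication stress, was at 3.91 in Saline and 5.02 in Meth in the authors' deposited table (2.15-fold, unadjusted p = 0.0104, adjusted p = 0.2561). Rpa3, the small subunit, was lower in Meth at 0.82 against 1.34 in the authors' deposited table (1.44-fold, unadjusted p = 0.3171). The 3 subunits of this stable trimer thus did not share a direction. Of the enzymes that finish Okazaki fragments, the ligase Lig1 stood at 2.18 in Saline and 2.79 in Meth in the authors' deposited table (1.53-fold, unadjusted p = 0.3976). The flap endonuclease Fen1 was listed at 0.01 and 0.00, and a primer pair that yields few reads cannot be told apart from a low transcript level.

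Of the 6 origin recognition subunits, 5 were higher in Meth in the authors' deposited table, and with the GC trend removed Orc4 joined them. Their median log2 difference was 0.30, and none had an unadjusted p under 0.05. Orc6, the least conserved subunit, had the widest gap at 2.03 in Saline and 2.70 in Meth in the authors' deposited table (1.59-fold, unadjusted p = 0.1037). The core subunits Orc2 (4.41 and 4.84), Orc3 (3.56 and 3.96), Orc4 (6.17 and 6.08) and Orc5 (4.59 and 4.80) differed by 1.35-fold or less in the authors' deposited table. Orc1, the subunit whose abundance cycles in dividing mammalian cells, was near 0, at 0.04 and 0.25.

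GINS is the tetramer that completes the active helicase, and its genes split into 2 that were apart and 2 that were not. Gins1 stood at 2.30 in Saline and 3.61 in Meth in the authors' deposited table, a 2.49-fold difference with an unadjusted p of 0.1380. The second, Gins2, was at 0.12 in Saline and 0.82 in Meth in the authors' deposited table (1.62-fold, unadjusted p = 0.0235), a smaller fold with a smaller p at a level near the bottom of the scale. Gins3 (1.71 and 1.78) and Gins4 (3.98 and 3.95) differed by 0.07 log2 units or less in the authors' deposited table.

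**Figure D3:**
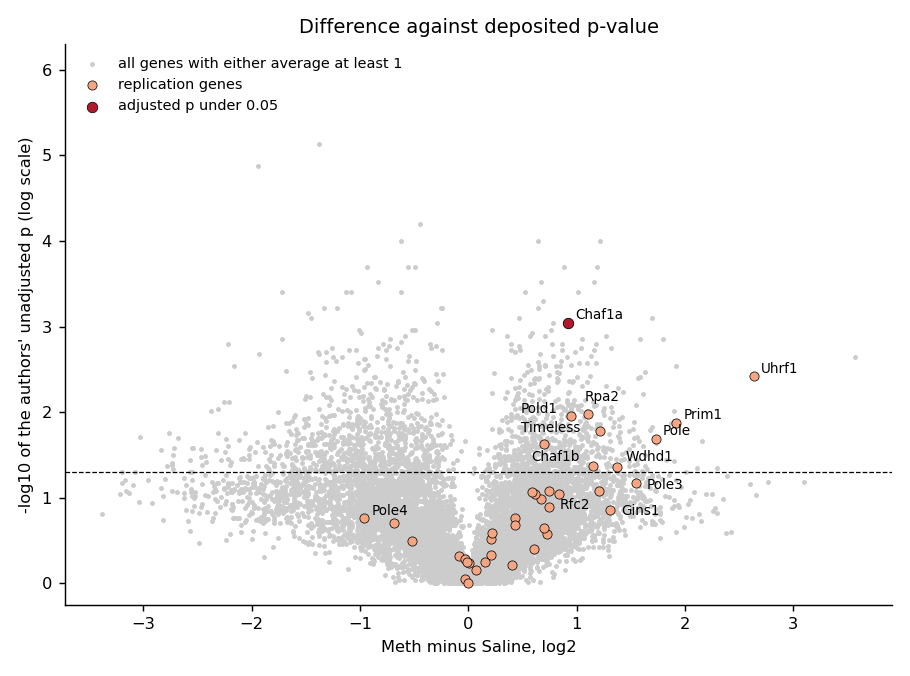
Difference of the group averages (Meth minus Saline, log2) against -log10 of the deposited unadjusted p, for genes with either average at least 1 (grey) and the replication genes (coloured), with the dashed line at 0.05. Chaf1a, with 0.92, has the smallest p of the set, while Gins1 (1.31), Rfc2 (1.21) and Pole3 (1.55) lie further right but under the line.

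By level, taken as the mean of both averages, the 16 replication genes from 1 to under 3 had a median log2 difference of 1.03 in the authors' deposited table, and 7 of them an unadjusted p under 0.05. The 18 genes with a mean of at least 3 had a median of 0.51, with 14 higher and 4 lower in Meth, and Pold1 and Rpa2 were the 2 at that p. Over all genes the medians were -0.12 from 1 to under 3 and 0.05 at 3 or above. The remaining 5 genes, Orc1, Gins2, Pole2, Fen1 and Clspn, lay under 1 in both groups. On the log2(RPM + 1) scale, a fold at a low level is understated. Summed over the 39 genes after conversion to RPM, the set took 0.104% of the total in Meth and 0.0671% in Saline. Such a sum is weighted towards genes with many reads. The highest averages in Meth were those of Top1, Rpa1 and Rfc2, none with an unadjusted p under 0.05.

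Other lists of the pathway, also assembled with earlier results of these data known, differed in how far they were shifted. Helicase loading and activation genes were higher in Meth for 14 of 18 in the authors' deposited table, with a median log2 difference of 0.62, the same as for the replication set. Of these, 7 were higher and 1, the kinase subunit Dbf4 (3.08 in Saline and 2.15 in Meth), was lower at an unadjusted p under 0.05. Mcm10, which bridges the helicase and polymerase alpha, was called at a low level (0.05 in Saline, 0.58 in Meth, adjusted p = 0.0195), and the licensing inhibitor Gmnn stood at 2.13 in Saline and 3.35 in Meth (unadjusted p = 0.0176) in the authors' deposited table. The helicase subunits Mcm5 (2.30 and 4.10) and Mcm6 (4.32 and 5.91) had adjusted p-values of 0.0613 and 0.0607 in the authors' deposited table. The subunits of this hexamer did not share a direction. Mcm3, named here with Mcm4 after their values were seen, stood at 5.32 in Saline and 3.26 in Meth in the authors' deposited table (4.17-fold lower, unadjusted p = 0.0762), the widest gap of the list, and Mcm4 at 3.73 in Saline and 3.08 in Meth (unadjusted p = 0.0663).

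Checkpoint kinases and their partners were higher for 7 of 10 genes, with a median of 0.49 in the authors' deposited table and 4 at an unadjusted p under 0.05. Pkmyt1, which holds Cdk1 inactive before mitosis, rose from 0.51 in Saline to 1.39 in Meth in the authors' deposited table (1.84-fold, adjusted p = 0.0110, and 0.1886 when adjusted over genes with an average of at least 1). Wee1, a kinase with the same target, stood at 0.95 in Saline and 1.80 in Meth in the authors' deposited table (unadjusted p = 0.0139). S phase entry genes had 11 of 18 higher and 5 lower with a median of 0.23, among them E2f1 (1.53 in Saline, 2.53 in Meth, unadjusted p = 0.0256) and E2f5 (3.64 and 4.56, unadjusted p = 0.0059) in the authors' deposited table. Polymerases of repair and lesion bypass were higher for 10 of 15 with a median of 0.25, and Rev1 (5.04 and 5.64) and Mad2l2 (3.40 and 4.26) were the 2 at an unadjusted p under 0.05.

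The remaining lists were nearer to balance. Of the 11 clamp, alternative loader and Okazaki nuclease genes in the authors' deposited table, the split was 6 higher to 5 lower and the median difference 0.30, and Rnaseh2b, a subunit of the enzyme that removes ribonucleotides from DNA, stood at 2.64 in Saline and 3.40 in Meth (unadjusted p = 0.0257). Deoxynucleotide synthesis had 6 higher and 7 lower of 13 with a median of -0.05. It held both a call in the direction of Meth, the deaminase Dctd (2.62 in Saline, 4.32 in Meth, adjusted p = 0.0386), and a call in the direction of Saline, the mitochondrial thymidine kinase Tk2 (3.25 and 1.53, adjusted p = 0.0209), in the authors' deposited table. Adjusted over genes with an average of at least 1, neither call was kept, with 0.2594 for Dctd and 0.2075 for Tk2, computed from the deposited p-values. Histone supply and maintenance methylation had 5 higher and 5 lower, with none at an unadjusted p under 0.05.

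G2 and mitosis genes, which act once replication is complete, had 11 higher and 8 lower of 19 with a median of 0.08 in the authors' deposited table. Of these 19, 7 lay under 1 in both groups, where the scale understates a fold, so the median is drawn towards 0. A difference of 1.5-fold or more was listed for 5 in the direction of Meth and 2 in the direction of Saline. These 5 were among the 12 genes that reached 1 in either group, all but Cdk1 in Meth only. Of all genes at that level, 19.7% were higher by that fold. At an unadjusted p under 0.05, 3 were higher and 2 lower. Of the higher ones, only Cdk1 (2.30 in Saline, 3.04 in Meth) reached 1 in either group. The lower ones were Plk1 (1.48 and 1.07) and Kif20a (2.94 and 1.95). Whether the replication genes differed from these lists was not tested, since the values of single mice are not in the table.

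**Figure D4:**
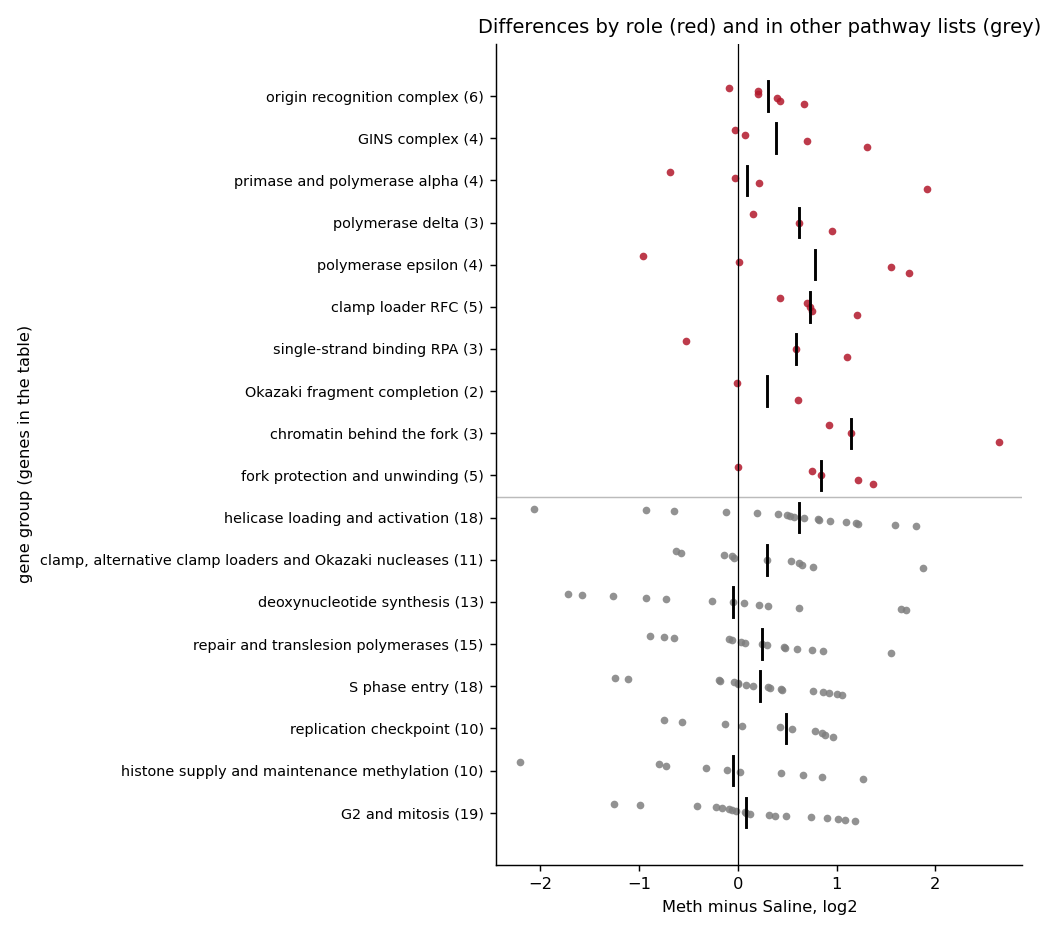
Differences of the group averages (Meth minus Saline, log2) for the replication genes by role (red) and for other lists of the pathway (grey), 1 point per gene, with the median as a black bar and the number of genes in brackets. Medians by role run from 0.10 for primase and polymerase alpha to 1.15 for the chromatin genes, and those of the other lists from -0.05 for deoxynucleotide synthesis to 0.62 for helicase loading.

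Markers of microglia and of other cells were examined for the identity of the sorted cells. All 12 microglia markers reached an average of at least 1 in either group. In Meth 8 of these were listed as lower and 3 as higher by the authors, and the list took 3.73% of the summed RPM in Meth and 5.44% in Saline. Of the lists for cell types outside the gate, border-associated macrophage markers took 0.188% in Meth and 0.170% in Saline. In this list 3 of 7 were higher, and Lyve1 was at or near 0 in both groups. Its highest averages were those of Stab1 (9.94 in Meth, 9.15 in Saline) and Maf (9.71 and 10.15). Which cells carried these 2 transcripts was not tested. Mrc1, the gene of the sorting marker CD206, was listed at 4.80 in Meth and 4.44 in Saline. Monocyte and neutrophil markers took 0.0381% and 0.0133% (2 of 7 higher, Ly6g near 0). The 2 higher ones were Lyz2, listed by the authors at 8.54 in Meth and 7.01 in Saline, and Cxcr2, called at 0.07 and -0.03. Lyz2 had the highest averages of this list, and its share is weighted towards such genes. Of the others 4 were lower, by the most Plac8 (0.36 in Meth, 2.15 in Saline), named here after its values were seen. Endothelial and mural cell markers took 0.00803% and 0.00976% (4 of 8 higher). The share of astrocyte markers was 0.00532% for Meth and 0.0143% for Saline (4 of 7 higher, with Slc1a3 at 5.21 and 7.02), that of oligodendrocyte lineage markers 0.00569% and 0.00261% (5 of 8, Olig2 near 0) and that of neuron markers 0.00122% and 0.000725% (6 of 9, Rbfox3 near 0). The neuron markers Stmn2 (0.92 in Saline, 1.97 in Meth, unadjusted p = 0.0014) and Gad1 (0.21 and 1.56, unadjusted p = 0.0132) were higher in Meth by the authors' deposited values, as most replication genes were. Lower in Meth were the neuron markers Snap25 (1.70 in Saline, 0.71 in Meth) and Syt1 (1.01 and 0.80), named here after their values were seen. The part of these other cell types in the replication gene differences was not tested.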

How the data were processed

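Microglia of 6 mice were profiled with an amplicon panel on an Ion S5XL sequencer, per the labels' protocols. The aligner, genome build, counting method, normalization and test used by the authors are not given in the sources at hand. The authors deposited 1 log2 average per group, a signed fold (a score, negative where Saline is higher), and p-values with FDR adjusted p-values, per the file headers. There are 0 columns per mouse. Converted back, the averages sum to 981392 in Meth and 1012103 in Saline, from which the unit is read as log2(RPM + 1). The deposited fold equals the difference of averages within 0.017 log2 units.

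No model was fitted. Calls are the authors' adjusted p under 0.05. Differences, medians and counts were computed with Python 3.11.15, numpy 2.4.6 and pandas 2.3.3, and the Benjamini-Hochberg adjustment and the GC trend removal (20 bins of the longest GENCODE M21 transcript) were tested on simulated data. The members and lists were chosen with earlier results of these data known. All members could be named, and of each other list the called genes and up to 3 more with the smallest p at an average of at least 1 in either group. For cell type lists, near 0 means within 0.05 of 0 in both groups. Promoter windows come from RefSeq on GRCm38.p6. One marker list, that of lymphocytes, is not reported here.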

Additional observations from a re-analysis of the deposited data

How the results depend on the processing

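More replication genes were higher than lower in Meth under every setting tried, whereas the single call was not kept under every setting. Most settings could not have reversed the direction. A change of the added constant cannot change a sign, and the level cuts keep a part of the same values. None of the settings bears on the spread between mice. With the deposited p-values adjusted by the Benjamini-Hochberg method over genes with either average at least 1, the number of called replication genes went from 1 to 0, with Chaf1a at an adjusted p of 0.2594, and it was also 0 over genes with either average at least 3, where Chaf1a is not among the genes tested. At an adjusted p under 0.10 the call count stayed at 1. At an unadjusted p under 0.01, 2 genes (Uhrf1 and Chaf1a) were listed in place of 10. Restricting the set to either average at least 3 left 17 higher and 4 lower with a median of 0.62. The median log2 difference was 0.30 on a log2(value + 8) scale, which compresses low values by construction, and 0.58 to 0.68 under the other settings. Centring on the median of genes at 3 or above (0.04) gave 30 higher and 9 lower, with Pole2 changing sign, and removing the trend with GC content 33 and 6, with Orc4, Prim2 and Pold2 changing sign. No paired analysis was possible because the table holds 1 average per group, and for the same reason leaving out each mouse was not run. Depth is unknown.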
